A study of Homo sapiens with 6 samples.

Results

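The transcripts described here encode the receptors of type I and type II interferon and the proteins that carry their signal to the nucleus. The set was chosen by gene name: the receptor chains IFNAR1, IFNAR2, IFNGR1 and IFNGR2, the kinases JAK1 and TYK2, and the transcription factors STAT2, IRF9 and IRF3. Of these 9 genes, 8 had a probe named for them and STAT2 was not analysed here, against 18852 genes with a named probe in the whole series. The 8 genes were read by 10 probes, 3 of them for IFNAR2 and 1 for each other gene. IGROV-1, an established line from a human ovarian carcinoma, was the source of the RNA, which was read on 6 single-colour Illumina bead arrays. Cells of 3 samples were treated with 10 µM CpG-ODN over 24 h, and cells of the other 3 samples got saline for an unstated time. The labels do not tell whether samples of one group came from different cultures, so the p-values may reflect technical spread alone. With so few arrays, precision is limited throughout.

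CpG-ODN was ODN1826, a phosphorothioate DNA of 20 bases with 2 CpG dinucleotides, which are in capitals here because unmethylated CpG is the feature that Toll-like receptor 9 binds.
ODN1826: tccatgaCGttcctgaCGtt

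Type I interferons bind a receptor made of IFNAR1 and IFNAR2, to which the kinases TYK2 and JAK1 are attached. The kinases phosphorylate STAT proteins, and STAT2 acts with IRF9 in the complex ISGF3 to switch on antiviral genes through a DNA motif called ISRE. Interferon gamma binds IFNGR1 and IFNGR2, and signalling from this receptor acts through a motif called GAS. IRF3 acts one step earlier, since cells that sense foreign nucleic acid phosphorylate it to switch on interferon genes. These proteins are controlled largely by phosphorylation, which transcript levels do not measure.

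IRF9 is itself known as an interferon-inducible gene, so its promoter is shown. Windows of 300 bases (250 before to 50 after a gene start, RefSeq, GRCh38.p14) were found for 7 of the 9 genes, as 11 windows over alternative starts. The GAS pattern, TTC then NNN then GAA, was in 1 of the 11 windows on either strand, that of IRF9, and in 7.66% of the 35116 promoters of this length. The ISRE core, GAAA then NN then GAAA, was in 0 of the 11 windows and in 3.57% of all. In the IRF9 window, chr14:24161015-24161314 on the plus strand, the match begins at base -63 from the start and is in capitals. A match in letters is a description and does not show that a factor binds.
IRF9 promoter: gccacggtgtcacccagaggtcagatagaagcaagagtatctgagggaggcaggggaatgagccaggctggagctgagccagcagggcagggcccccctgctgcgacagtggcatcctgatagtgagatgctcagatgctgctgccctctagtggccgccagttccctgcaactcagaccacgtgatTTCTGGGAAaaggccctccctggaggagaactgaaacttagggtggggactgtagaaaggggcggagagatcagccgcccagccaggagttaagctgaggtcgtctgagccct

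Agreement between arrays was looser in the CpG-ODN group. Between 17142 and 18426 of the 48803 probes were detected on a CpG-ODN array, and between 17625 and 18790 on a saline array. Over the 17950 probes tested, pairs of CpG-ODN arrays correlated at 0.964 to 0.983 and pairs of saline arrays at 0.989 to 0.991. CpG-ODN 1 and CpG-ODN 2 were the pair farthest apart. Pairs with 1 array from each group correlated at 0.976 to 0.990, so the arrays did not separate by treatment. CpG-ODN 3 was closer to each saline array (0.989 to 0.990) than to CpG-ODN 1 (0.977) or CpG-ODN 2 (0.983). For the receptor and signalling genes, values without an array are therefore given where leaving it out turned the direction or moved the fold change by over 1.5 times, as a range where several arrays did so. Of 8 carcinoma markers 7 were measured, PAX8, EPCAM, KRT7, KRT8, KRT18 and KRT19 on all 6 arrays and MUC16 on 2 CpG-ODN and 3 saline arrays. Of 6 leukocyte markers PTPRC and CD3E were detected on 0 arrays and CD14, CD68 and LYZ were measured. Of 4 fibroblast markers DCN was measured, and of 3 endothelial markers PECAM1 and VWF. Differences of these 6 markers lay between -0.41 and 0.36 on the log2 scale with 0 called, and their part in the results was not tested.

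Transcripts of all 8 interferon receptor and signalling genes were detected in both groups, and none of them passed the test for a difference between CpG-ODN and saline. A probe counted as detected on an array when its detection p-value was under 0.05. Of the 10 probes, 9 were detected on all 6 arrays, where 30.2% of all probes were, and the remaining IFNAR2 probe was detected on 0 arrays. The 9 detected probes were tested with limma, with p adjusted by the Benjamini-Hochberg method over all 17950 tested probes. The count called at an adjusted p under 0.05 was 0 of 9, where 0% of all tested probes were called, and each had an adjusted p of 1.00. At an unadjusted p under 0.05 there were 0 of 9 against 3.58% of all tested probes, and 0 of 9 had groups that did not overlap, against 9.35%. The mean was higher in CpG-ODN for 4 probes and lower for 5. The median log2 fold change, CpG-ODN minus saline, was -0.06 over the 9 probes and -0.01 over all tested probes.

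The size of change was bounded by limma intervals, in which the spread of each probe is drawn towards that of all tested probes. For the probes with the widest spread the intervals are therefore narrower than their own arrays alone would give. This holds for IRF3 (SD 0.75 in CpG-ODN) and JAK1 (SD 0.42 in CpG-ODN), whose bounds are the least secure. For 9 of 9 probes the fold change had a 95% interval within 2-fold either way, against 93.6% of all tested probes. It was within 1.5-fold for 4 of 9 probes, those of IFNGR1, IFNGR2, TYK2 and IRF9, against 43% of all. Of these, the 1.5-fold bound of IFNGR1 (SD 0.27 in CpG-ODN and 0.24 in saline) is not secure, as it rests on the narrowed interval. The standard error (SE) of the log2 fold change had a median of 0.20 over the 9 probes and 0.20 over all. For IFNAR1, IFNAR2, JAK1 and IRF3 a change of 1.5-fold therefore lay within the interval.

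**Figure D1:**
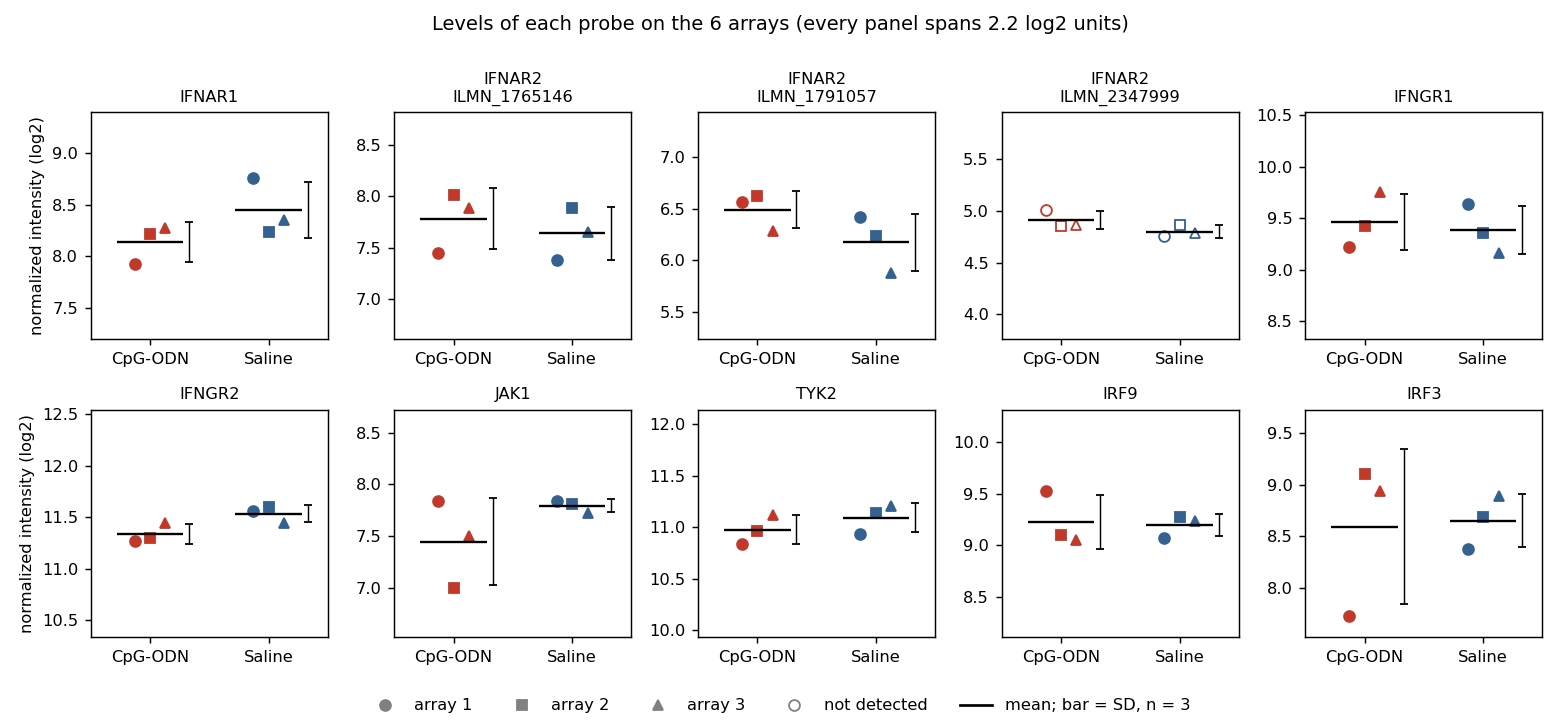
Normalized log2 intensity of each of the 10 probes on each array, CpG-ODN left and saline right, with the mean as a line and the SD as a bar (n = 3 each); open symbols are arrays on which the probe was not detected. Levels are to be compared within a panel only; the groups overlap in each of the 9 panels with filled symbols, and the widest spread is that of IRF3 in CpG-ODN.

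IFNAR1, the signalling chain that holds TYK2, had normalized log2 intensities of 7.92, 8.22 and 8.27 in CpG-ODN arrays 1 to 3, against 8.76, 8.24 and 8.36 in saline arrays 1 to 3. The groups overlapped only because CpG-ODN 3 was above saline 2, by less than 0.05 log2 units. The log2 fold change was -0.31 ± 0.20 (SE, n = 3 each), with a 95% interval from -0.75 to 0.13 and an unadjusted p of 0.147 in limma. It was -0.16 without saline 1, the highest array, and -0.20 without CpG-ODN 1, the lowest.

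IFNAR2 is the chain that binds type I interferon most tightly and holds JAK1, and its 3 probes gave different readings. The probe ILMN_1765146 had log2 intensities of 7.45, 8.01 and 7.89 in CpG-ODN, against 7.38, 7.89 and 7.65 in saline. Both groups covered nearly the same span, and the log2 fold change was 0.14 ± 0.21 (SE), with an interval from -0.33 to 0.62. Leaving out an array moved it between 0.01 without saline 1 and 0.31 without CpG-ODN 1.

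A second IFNAR2 probe, ILMN_1791057, is annotated to another transcript of the gene and was close to background, with detection p-values between 0.00659 and 0.0316. Its log2 intensities were 6.56, 6.62 and 6.29 in CpG-ODN, against 6.42, 6.23 and 5.88 in saline. CpG-ODN arrays 1 and 2 were above all saline arrays and CpG-ODN 3 lay among them. This gave a log2 fold change of 0.32 ± 0.20 (SE), with an interval from -0.12 to 0.76 and an unadjusted p of 0.139 in limma. It was 0.17 without saline 3. The offset added before the logarithm draws the fold change of so dim a probe towards 0.

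The third IFNAR2 probe, ILMN_2347999, is annotated to the same transcript as ILMN_1765146 but was detected on no array. Its non-normalized intensity was 106, 100.02 and 101 in CpG-ODN, against 91.1, 100.02 and 93.5 in saline, all below the lowest detected signal of the same array, which lay between 128.8 and 140.3. No fold change is given for it. Over the 6 arrays the detected pair of probes had a Pearson correlation of 0.003, given as a description.

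IFNGR1, the ligand-binding chain of the interferon gamma receptor, had log2 intensities of 9.21, 9.42 and 9.75 in CpG-ODN, against 9.63, 9.36 and 9.16 in saline. The groups spanned nearly the same range, with CpG-ODN 3 the highest array. Its log2 fold change was 0.08 ± 0.20 (SE), with an interval from -0.38 to 0.54. It turned to -0.07 without CpG-ODN 3 and to -0.03 without saline 3, and was 0.20 without CpG-ODN 1 or without saline 1.

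IFNGR2, the second chain, which couples the receptor to JAK2, had log2 intensities of 11.27, 11.30 and 11.45 in CpG-ODN, against 11.56, 11.60 and 11.44 in saline. CpG-ODN 3 and saline 3 were almost level, and the other CpG-ODN arrays were below all saline arrays. Its log2 fold change was -0.20 ± 0.16 (SE), the smallest SE of the 9 probes, with an interval from -0.55 to 0.16.

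JAK1 is the kinase shared by both receptors, and it had the largest difference of the 9 probes. Its log2 intensities were 7.84, 6.997 and 7.50 in CpG-ODN, against 7.84, 7.81 and 7.72 in saline. The saline arrays lay within 0.12 log2 units of each other and the CpG-ODN arrays spread over 0.84, with CpG-ODN 1 at the saline level and CpG-ODN 2 lowest. This left a log2 fold change of -0.35 ± 0.22 (SE), with an interval from -0.85 to 0.15 and an unadjusted p of 0.149 in limma. It was -0.12 without CpG-ODN 2 and -0.54 without CpG-ODN 1, where the unadjusted p was 0.0190 and the adjusted p 0.522.

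TYK2, the kinase on IFNAR1, had log2 intensities of 10.84, 10.97 and 11.12 in CpG-ODN, against 10.94, 11.14 and 11.21 in saline. The groups overlapped over most of their span, and the log2 fold change was -0.12 ± 0.17 (SE), with an interval from -0.50 to 0.26. It moved between -0.20 without saline 1 and -0.05 without CpG-ODN 1.

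IRF9, the DNA-binding part of ISGF3 whose promoter is shown above, had log2 intensities of 9.52, 9.10 and 9.05 in CpG-ODN, against 9.07, 9.28 and 9.23 in saline. CpG-ODN 1 was above all saline arrays, and CpG-ODN 2 and 3 were near the lowest of them. Its log2 fold change was 0.03 ± 0.19 (SE), the smallest of the 9 in size, with an interval from -0.39 to 0.44. Its sign rested on single arrays: it was -0.12 without CpG-ODN 1 and -0.03 without saline 1, and up to 0.12 without another array.

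IRF3, the factor that starts interferon production, had log2 intensities of 7.73, 9.10 and 8.94 in CpG-ODN, against 8.38, 8.68 and 8.89 in saline. CpG-ODN 1 was the lowest array of all, and CpG-ODN 2 and 3 were above every saline array. The CpG-ODN arrays spread over 1.38 log2 units and the saline arrays over 0.51, where the medians of all tested probes were 0.53 and 0.31. The log2 fold change was -0.06 ± 0.34 (SE), with an interval from -0.82 to 0.70, the widest of the 9. It was 0.37 without CpG-ODN 1, with an unadjusted p of 0.0841 and an adjusted p of 0.562 in limma, and 0.06 without saline 3. It was -0.32 without CpG-ODN 2, -0.23 without CpG-ODN 3 and -0.19 without saline 1.

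**Figure D2:**
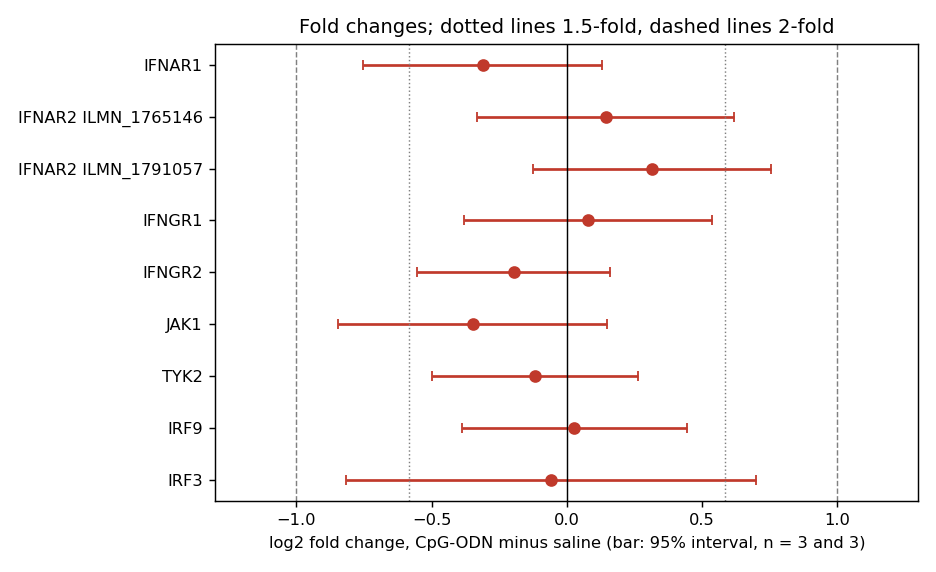
Log2 fold change (CpG-ODN minus saline) of each of the 9 tested probes with its 95% interval, over 3 arrays in each group. Each interval crosses 0 and lies inside the dashed lines at 2-fold, and those of IFNGR1, IFNGR2, TYK2 and IRF9 also lie inside the dotted lines at 1.5-fold.

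The members did not depart from saline on the same arrays. The saline mean had all 3 CpG-ODN arrays on the same side for 3 of the 9 probes, against 28.4% of all tested probes: IFNAR1 and IFNGR2 below it, and IFNAR2 probe ILMN_1791057 above it. CpG-ODN 1 was the CpG-ODN array farthest from the saline mean for 5 probes (40.7% of all tested probes), CpG-ODN 2 for 3 (43.6%) and CpG-ODN 3 for 1 (15.7%). The range was wider over the CpG-ODN arrays than over the saline arrays for 7 of the 9 probes, against 74.3% of all tested probes, so these shares are near the background. IRF3 and IRF9 lay on opposite sides of the saline mean on each CpG-ODN array. They were not the only such pair, as JAK1 had the signs of IRF9, and IFNGR1 and IFNAR2 probe ILMN_1765146 those of IRF3. IRF3 was lower by 0.92 on CpG-ODN 1 and higher by 0.45 and 0.29 on CpG-ODN 2 and 3, while IRF9 differed by 0.33, -0.10 and -0.15.

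**Figure D3:**
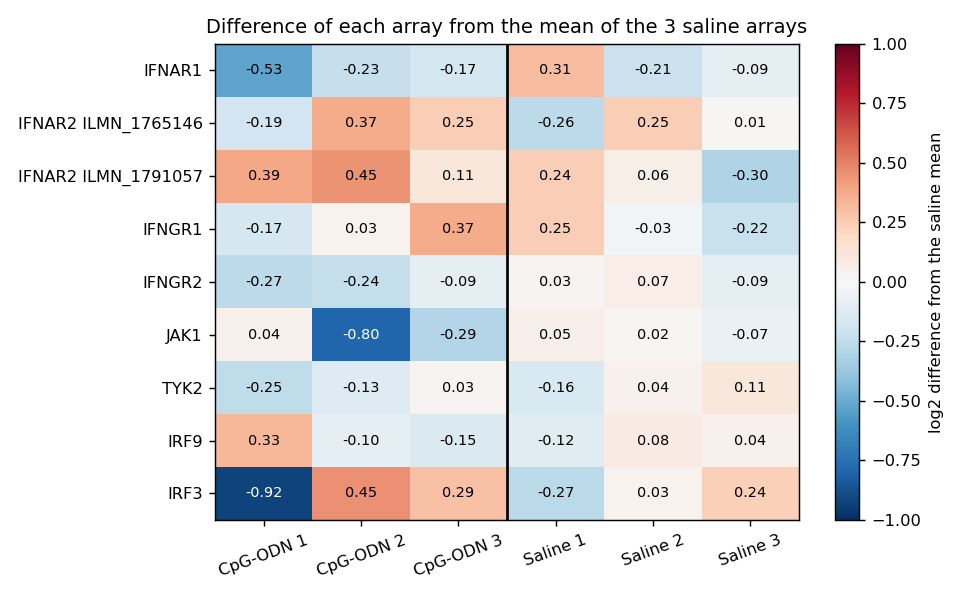
Difference of each array from the mean of the 3 saline arrays, in log2 units, for the 9 tested probes (rows), with CpG-ODN arrays left of the line and saline arrays right of it. The darkest cells are IRF3 on CpG-ODN 1 and JAK1 on CpG-ODN 2.

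Across the 6 arrays the members were not of one pattern, and the correlations between them are given as descriptions over arrays that share their group and their quality. With the brightest probe of each gene, IFNAR2 and IRF3 had the highest Pearson correlation, 0.78, and IFNGR1 and IRF9 the lowest, -0.76. The genes most like each member, out of 11039, were KRT8 (0.998) and DGUOK (0.996) for IRF3, WEE1 (0.996) and CHRM5 (0.994) for JAK1, and CYP4F11 (0.993) and ZNF24 (0.989) for IFNGR2. For IRF9 they were FAM131B (0.993) and CES2 (0.991), for IFNAR2 LRRC8E (0.993) and ZDHHC12 (0.988), and for TYK2 PPP2R2A (0.979) and JAKMIP1 (0.979). For IFNGR1 they were TFAM (0.979) and JPH1 (0.963), and for IFNAR1 P3H1 (0.975) and DUS2 (0.968). Keratin 8, an epithelial filament protein, had log2 intensities of 8.99, 10.00 and 9.92 in CpG-ODN and 9.46, 9.66 and 9.85 in saline. CpG-ODN 1 was thus its lowest array, as it was for IRF3. Each gene here was picked as closest among 11039 over only 6 arrays, so high values and such shared arrays follow from the choice.

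Genes around the members in the pathway did not pass the test either. Lists of other pathway genes held 87 genes, of which 57 had a tested probe, each gene being read by its brightest one. Of these 57 genes 0 were called higher and 0 lower, each with an adjusted p of 1.00 in limma. The mean was lower in CpG-ODN for 42 of them and higher for 15, where 51.2% of all 11040 measured genes had a lower mean. Of the 49 genes detected on all 6 arrays, 35 had a lower mean, against 50.3% of all 9726 such genes. The lists were chosen with earlier results known, several interferon targets with their values known, so these counts are no independent evidence of a direction. The 57 also include genes that the filter could let in through 1 group alone, such as PSMB9 (0 CpG-ODN and 3 saline arrays). Among the members, read by gene in the same way, the mean was lower for 2 of 4 receptors, 2 of 2 kinases and 1 of 2 measured transcription factors. Leaving out single arrays turned the sign of some genes named in the next paragraphs, IFNE, IFNLR1, IRF1, IRF7, PTPN1, TBK1 and MX1. In bulk RNA, fewer cells with a transcript and less of it per cell cannot be told apart.

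Of 21 interferon ligand genes 3 were measured, and 16 were detected on 0 arrays by their brightest probe, IFNB1 and IFNG among them. IFNA10, detected on 3 CpG-ODN and 2 saline arrays, had log2 intensities of 6.45, 6.23 and 5.90 in CpG-ODN and 5.89, 5.87 and 5.55 in saline. The difference of 0.42 ± 0.20 (SE) had an unadjusted p of 0.0595 in limma, and the groups did not overlap. IFNA8 lay at 0.33 and IFNE, an interferon of reproductive epithelium, at -0.13. The genes of the IFNA family are close copies of each other, so which of them such a probe reads is uncertain. Both chains of the type III interferon receptor were measured, IFNLR1 at 0.06 and IL10RB at 0.17.

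Among other JAKs and STATs 5 of 7 genes were measured, 2 higher and 3 lower in mean, with a median of -0.11. STAT3, which carries signals of the interleukin 6 family, had log2 intensities of 10.41, 10.74 and 10.72 in CpG-ODN, against 10.89, 11.09 and 11.04 in saline. Its groups did not overlap, and the log2 fold change was -0.38 ± 0.17 (SE) with an unadjusted p of 0.0533 in limma, with -0.47 and -0.22 on its other probes. JAK2, the kinase on IFNGR2, lay at -0.17 ± 0.19. JAK3 and STAT5A were detected on 0 arrays.

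Other interferon regulatory factors were measured for 4 of 6 genes, with a median of -0.13. IRF1, a gene induced by interferon gamma, lay at 0.11 ± 0.19 (SE), IRF7, which amplifies type I interferon production, at -0.19 ± 0.24, and IRF5 at -0.16 ± 0.18. IRF4 and IRF8, factors of lymphoid and myeloid cells, were detected on 0 arrays.

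Genes that restrain the pathway had a lower mean in 10 of 11 measured genes of 13 listed, with a median of -0.14. PIAS1, an inhibitor of STAT proteins, lay at -0.26 ± 0.16 (SE) with groups that did not overlap. SOCS3, a feedback inhibitor of JAKs, had log2 intensities of 6.50, 7.97 and 7.23 in CpG-ODN, against 7.55, 7.67 and 7.82 in saline, and a log2 fold change of -0.45 ± 0.32. CpG-ODN 1 and 2 lay on either side of all its saline values, and the fold change was -0.08 without CpG-ODN 1 and -0.83 without CpG-ODN 2. PTPN1, a phosphatase of TYK2 and JAK2, was the one with a higher mean, at 0.02, and SOCS1 was detected on 0 arrays.

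Genes that lead to IRF3 activation were measured for 13 of 14, with a lower mean in 11 and a median of -0.18. STING1, the adaptor for cytosolic DNA, had log2 intensities of 7.48, 7.52 and 7.45 in CpG-ODN, against 7.99, 7.76 and 7.76 in saline. These groups did not overlap, and the log2 fold change was -0.35 ± 0.16 (SE) with an unadjusted p of 0.0534 in limma. TICAM1, the adaptor of Toll-like receptor 3, had values of -0.26 ± 0.16 (brightest probe) and -0.56 (other probe). MAVS, the adaptor of the RNA sensors, had values of 0.31 ± 0.20 on the brightest probe and 0.46 on the other, and the IRF3 kinase TBK1 of -0.03 ± 0.22.

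Interferon targets, the genes that interferon signalling is known to drive, were measured for 19 of 24, with a lower mean in 14 and a median of -0.08. A lower mean was found for 10 of the 15 targets detected on all 6 arrays. Of these 15, IFIT1, DDX60 and IFI44 had a lower mean with an unadjusted p under 0.05 in limma, 3 of 15, where 1.05% of all genes so detected did. IFIT3 and PSMB9 also had such a p, but were detected on 2 and 0 CpG-ODN arrays and on 3 saline arrays each, so the filter could let them in through saline alone, and they are not counted. IFIT1, an RNA-binding antiviral protein, had log2 intensities of 6.42, 5.69 and 5.80 in CpG-ODN, against 7.33, 7.67 and 6.88 in saline, a log2 fold change of -1.32 ± 0.26 (SE) on its brightest probe and 0.19 on its other one. PSMB9, an immunoproteasome subunit, was detected on 0 CpG-ODN and 3 saline arrays. Its saline mean was 1.64-fold above the mean lowest detected signal of the CpG-ODN arrays. That ratio makes no allowance for the spread between arrays, so it is not a least size of change. ISG15 lay at -0.67 ± 0.37, with -0.38 without CpG-ODN 1 and -1.07 without CpG-ODN 2, and MX1 at -0.07 ± 0.21. Several of these targets were put in the list with their values known, so their direction is no independent evidence. Of the 2 inducible members, IRF9 lay at 0.03 beside them, and STAT2 was not analysed here.

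**Figure D4:**
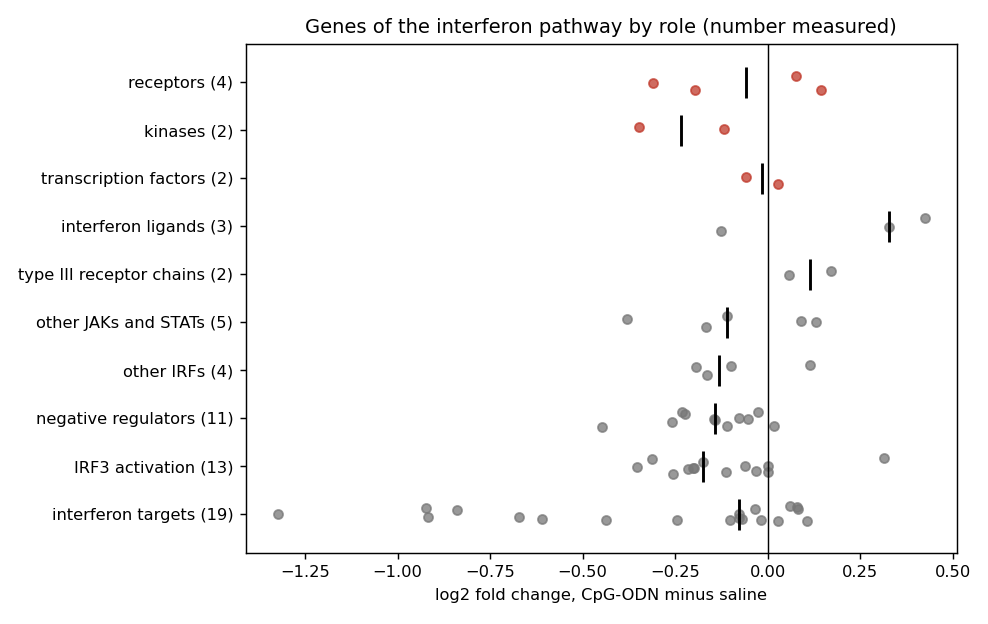
Log2 fold change (CpG-ODN minus saline) of each measured gene by role, on its brightest probe, with the list's median as a black line; receptors, kinases and transcription factors of the set are in red and other pathway genes in grey. The red points lie between -0.35 and 0.14, and the lowest grey point is IFIT1 at -1.32.

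**Figure D5:**
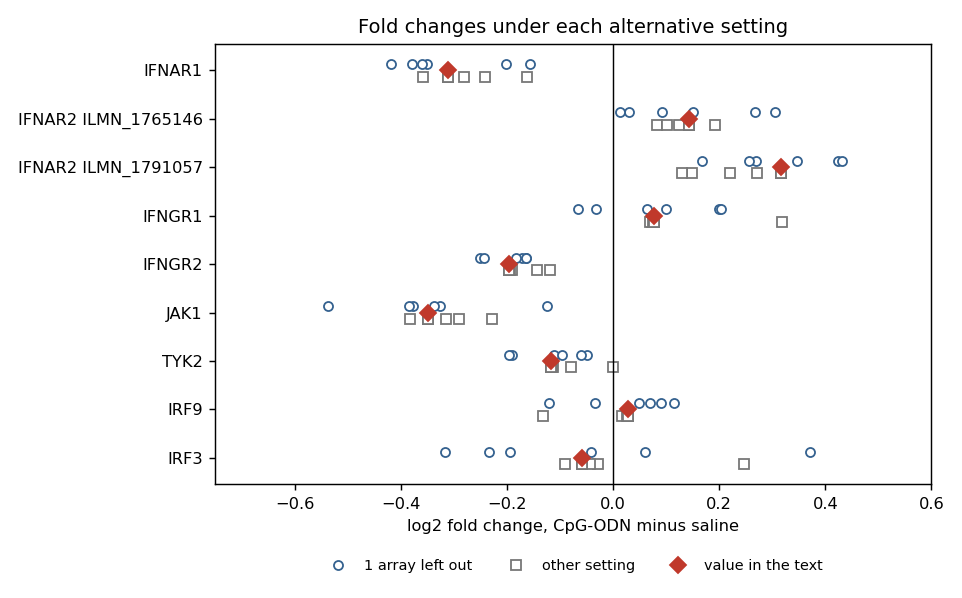
Log2 fold change of each of the 9 tested probes as given in the text (diamonds), with 1 array left out (circles) and under the other settings tried (squares). The values of IFNGR1, TYK2, IRF9 and IRF3 fall on both sides of 0, and those of IFNAR1, IFNAR2, IFNGR2 and JAK1 stay on one side.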

How the data were processed

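Single-colour Illumina arrays of 3 CpG-ODN and 3 saline samples were used, grouped by their titles. The deposited intensities of the first table were linear and raw (no normalization per the file headers, no background subtraction by the values), and a detection p-value was deposited beside each. BeadStudio is named in the submitters' processing notes. A second deposited table of normalized intensities, within 0.0218 log2 units of a quantile normalization of the first, was an alternative.

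Intensities were background-corrected and quantile normalized to log2 values with neqc (limma 3.58.1, R 4.3.3, offset 16, with the background estimated through the detection p-values). Probes detected (p under 0.05) on at least 3 of 6 arrays were kept, which left 17950. Probes were named from the platform annotation, which gave 1 symbol to 28098 probes, several to 13 and none to 20692; gene numbers matched RefSeq for 28059. Group was the only term in lmFit and eBayes. The fit was first run on simulated data, and its outcome there is not reported here. Arrays with the same number deviated together at 0.341, 0.0499 and 0.126 across probes, and arrays with different numbers at -0.307 to 0.243. These values do not settle whether the numbers mark pairs. As the labels do not say so, pairing was left to an alternative, the replicate block. With that block 893 probes had an unadjusted p under 0.05 in limma, against 643 without it. The members, the lists and the tests were chosen with earlier results of these data known. Named genes were all members, the 2 genes of each list with the smallest unadjusted p, some genes fixed by name (a few listed genes are not reported here), and the 2 genes most like each member over the arrays; other genes named were chosen after their values were seen. Alternatives were median scaling, the deposited normalized values, offset 50, no filter, a stricter filter, 1 probe per gene, array weights, a replicate block and each array left out.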

Additional observations from a re-analysis of the deposited data

How the results depend on the processing

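No probe of the 8 genes, and no probe of all those tested, was called in any of the 14 alternatives; with the replicate block 0 were called as well, and the smallest adjusted p of all tested probes was 0.0544, with array weights. Of 125 single values, 116 kept their sign and 9 turned. With array weights, which gave CpG-ODN 3 a weight of 4.71 beside 0.257 and 0.349 for CpG-ODN 1 and 2, TYK2 lay at 0.00062, IRF9 at -0.13 and IRF3 at 0.25, and IFNGR1 at 0.32 (unadjusted p 0.0514 and adjusted p 0.313 in limma), IFNAR1 at -0.16, IFNGR2 at -0.12 and the IFNAR2 probe ILMN_1791057 at 0.13. Median scaling gave 0.08 for IFNAR2 ILMN_1765146, -0.09 for IRF3 and 0.02 for IRF9, and the deposited normalized values 0.15 for IFNAR2 ILMN_1791057, -0.03 for IRF3 and -0.23 for JAK1. With 1 array left out IFNGR1 ran from -0.067 to 0.20, IRF9 from -0.12 to 0.12 and IRF3 from -0.32 to 0.37. The median of the 9 probes then ran from -0.19 (without CpG-ODN 3) to -0.033 (without saline 3). The count of all tested probes at an unadjusted p under 0.05, which was 643, was 334 with median scaling, 2051 with no filter, 395 with 1 probe per gene and 2903 with array weights, and 365 to 1654 with 1 array left out; among the members it was 1 with array weights and without CpG-ODN 1 (JAK1 both times) and otherwise 0. In alternatives chosen after seeing the data, the count of interferon targets at an unadjusted p under 0.05, which was 5, was 3 with detection on all 6 arrays and 4 to 6 with 1 array left out. The cause of these differences was not tested, except that no filter and 1 probe per gene change the number of probes tested. Signal over background limits 2 of the IFNAR2 probes most: ILMN_2347999 was not detected, and ILMN_1791057 read 1.20 to 1.47 times the lowest detected signal on the CpG-ODN arrays and 1.12 to 1.36 times on the saline arrays.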
